A study of Mus musculus with 4 samples.

Results

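The troponin genes and their fast or slow sarcomere partners were 10 genes read as 5 pairs, taken by symbol from the platform annotation of the deposited table. They were the fast and slow troponins I (Tnni2 and Tnni1), T (Tnnt3 and Tnnt1) and C (Tnnc2 and Tnnc1), the alpha-actinins Actn3 and Actn2, and the myosin-binding proteins C Mybpc2 and Mybpc1. All 10 were measured, each by 1 probe set with exactly 1 symbol, among 22180 genes in all. The samples were tendons of untreated wild-type C57Bl/6 mice, an inbred strain, aged 4 months: 2 arrays from males (male 1 and male 2) and 2 from females (female 1 and female 2). Achilles and plantaris tendons of an animal were combined before RNA was isolated, with 3 RNA wells per sample, per the labels. Whether each sample is an animal of its own is not stated there, so p-values cover only the spread between these arrays, which may be technical, and precision is limited by their number.

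The troponin complex sits on the thin filament of striated muscle and makes contraction depend on calcium. Troponin C binds calcium, troponin I holds actin and myosin apart at rest, and troponin T ties the complex to tropomyosin. Fast and slow muscle fibres use different genes for each subunit. Alpha-actinins cross-link thin filaments at the Z-disc: Actn3 is restricted to fast fibres, whereas Actn2 is present in every fibre type, so that pair is not a strict fast and slow pair. Myosin-binding protein C belongs to the thick filament and reaches toward the thin one. Mybpc2 is named the fast form and Mybpc1 the slow form, and these names are not read here as strict limits to a fibre type. Tnnc1 is also the troponin C of the heart.

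Tenocytes are the labelled cell type, but RNA came from whole tendon. Markers of tendon were measured in 10 of 10 cases, and 0 of these had a mean below the array medians. The lowest means of the 10 were those of Mkx, at 2.26 to 3.09 over the arrays, and Scx, at 3.18 to 3.58. In female 1, Mkx lay just below the array median. Col1a1, a type I collagen gene, was at 6.46, 6.33, 6.04 and 6.54 in male 1, male 2, female 1 and female 2. The 10 sarcomere genes, which belong to muscle fibres and not to tendon cells, were between 5.66 and 10.94 (log2 RMA values) on every array, against array medians of 2.27 to 2.30 over all rows. In such whole-tissue RNA, fewer fibres of a type and less RNA per fibre cannot be told apart. A value also depends on how its probes respond, so levels are compared between arrays and not between genes.

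**Figure D1:**
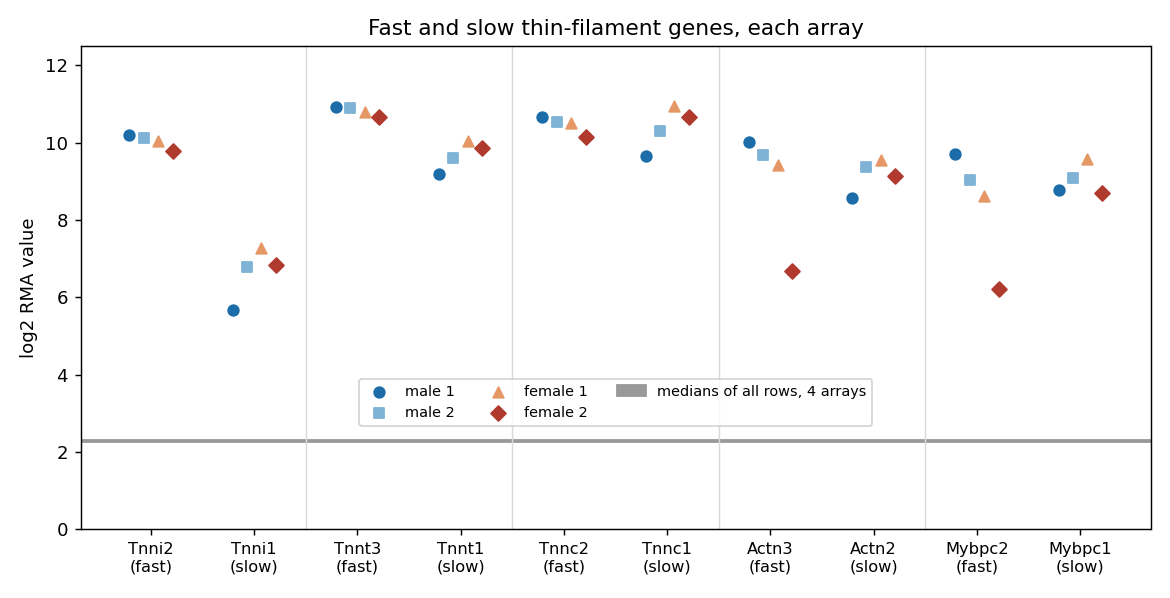
The log2 RMA value of each of the 10 genes is plotted for every array, in fast and slow pairs; points are single arrays and the grey band marks the array medians over all rows. The fast genes Actn3 and Mybpc2 are at 6.68 and 6.20 in female 2 and at or above 8.62 in the other 3 arrays, while male 1 holds the lowest value of 4 of the 5 slow genes.

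The fast troponins were compared first, as the 3 subunits of 1 complex in fast fibres. Tnnt3, the fast troponin T gene, was at 10.92 in male 1, 10.88 in male 2, 10.78 in female 1 and 10.66 in female 2. Tnni2, the fast inhibitory subunit gene, was at 10.19, 10.11, 10.03 and 9.78 in the same order of arrays. Tnnc2, which encodes the fast calcium-binding subunit, was at 10.66, 10.52, 10.50 and 10.14. In all 3 genes both males lay above both females and female 2 was lowest, yet the nearest arrays of the sexes were only 0.03 to 0.10 apart and the whole span was 0.27 to 0.52. The median span of all probe sets tested was 0.44. The differences, female minus male, were -0.18 (SE 0.15) for Tnnt3, -0.25 (SE 0.17) for Tnni2 and -0.27 (SE 0.19) for Tnnc2. The highest values of any probe set were 11.64 to 11.93 per array, and whether the upper end of the scale narrowed the spread of these genes was not tested. Tnni2 and Tnnt3 lie near each other on chromosome 7 in the RefSeq annotation, with Lsp1 between them.

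The slow troponins had the opposite order of arrays at the low end. Tnni1, the slow inhibitory subunit gene, was at 5.66 in male 1, 6.78 in male 2, 7.28 in female 1 and 6.84 in female 2. Tnnt1, the slow troponin T gene, was at 9.18, 9.60, 10.05 and 9.87. Tnnc1, the slow and cardiac calcium-binding subunit gene, was at 9.65, 10.30, 10.94 and 10.67. Male 1 was lowest and female 1 highest in all 3, and no male array reached a female array. For Tnni1 the nearest arrays of the sexes, male 2 and female 2, were only 0.06 apart. The differences, female minus male, were 0.84 (SE 0.43) for Tnni1, 0.57 (SE 0.21) for Tnnt1 and 0.83 (SE 0.28) for Tnnc1. Without male 1 they were 0.28, 0.36 and 0.50.

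Upstream sequence is shown for the 3 slow troponin genes because they shared 1 order of arrays, with Tnnc2 as the fast partner of Tnnc1 and Mybpc2 as a fast gene with a wide spread. RefSeq promoter sequences (build GRCm38.p6) matched 7 of the 10 genes; Tnni2, Tnnt3 and Actn3 had no entry in the table. Each line gives the 250 bases before the first listed RefSeq start, 5′ to 3′ on the strand of the gene. Tnni1 had 2 listed starts, and its window lies inside the annotated gene (135783033 to 135810989), before an internal start. The window of Mybpc2 also reaches into its annotated gene. Capitals mark any match to CANNTG (the E-box, bound by myogenic factors of the MyoD family), CATTCC (the MCAT element), TATAAA, the MEF2 motif or the CArG box, searched on both strands.
Tnnc2 (chr2:164779735-164779984, minus strand): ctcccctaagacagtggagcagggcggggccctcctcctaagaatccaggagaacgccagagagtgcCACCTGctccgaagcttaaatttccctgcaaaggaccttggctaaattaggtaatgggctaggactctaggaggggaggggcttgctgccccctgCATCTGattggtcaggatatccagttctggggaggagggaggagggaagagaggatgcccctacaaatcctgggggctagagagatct
Mybpc2 (chr7:44524670-44524919, minus strand): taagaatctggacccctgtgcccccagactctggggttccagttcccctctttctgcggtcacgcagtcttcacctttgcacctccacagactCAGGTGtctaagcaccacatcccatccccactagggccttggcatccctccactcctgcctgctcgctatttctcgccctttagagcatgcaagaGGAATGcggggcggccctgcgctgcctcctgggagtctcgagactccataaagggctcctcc
Tnni1 (chr1:135799171-135799420, plus strand): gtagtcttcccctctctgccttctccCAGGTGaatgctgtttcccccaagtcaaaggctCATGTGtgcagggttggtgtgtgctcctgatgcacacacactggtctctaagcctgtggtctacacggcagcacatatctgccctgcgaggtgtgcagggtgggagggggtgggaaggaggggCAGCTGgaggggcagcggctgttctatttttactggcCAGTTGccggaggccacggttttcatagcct
Tnnt1 (chr7:4515976-4516225, minus strand): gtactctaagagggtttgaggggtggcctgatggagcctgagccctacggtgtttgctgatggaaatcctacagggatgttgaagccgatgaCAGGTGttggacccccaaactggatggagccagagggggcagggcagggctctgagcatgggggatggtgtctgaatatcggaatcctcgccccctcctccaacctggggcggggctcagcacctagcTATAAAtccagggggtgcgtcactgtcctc
Tnnc1 (chr14:31208062-31208311, plus strand): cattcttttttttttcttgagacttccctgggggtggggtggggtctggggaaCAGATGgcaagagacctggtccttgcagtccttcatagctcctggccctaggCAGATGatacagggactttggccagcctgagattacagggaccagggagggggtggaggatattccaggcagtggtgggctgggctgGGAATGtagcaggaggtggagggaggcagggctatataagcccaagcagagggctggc
The E-box was found in each of these 5 windows, 4 times for Tnni1, 2 times each for Tnnc1 and Tnnc2, and 1 time each for Tnnt1 and Mybpc2. It is common: 66.2% of all 32851 windows of this length held it. The E-box form CAGCTG, which is contained in CANNTG, was found in Tnni1 and is held by 13.0% of windows. CATTCC was found, as its reverse complement, in Tnnc1 and Mybpc2, at 58 and 62 bases before the start, and is held by 12.6%. TATAAA was found in Tnnt1, 30 bases before the start, and is held by 12.4%. The MEF2 motif (2.9% of windows) and the CArG box (1.5%) had no match in these windows. These matches are a description of the letters and do not separate the fast from the slow genes shown.

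The fast sarcomere partners had the widest spread of the 10 genes. Actn3, the fast-fibre alpha-actinin gene, was at 10.01 in male 1, 9.67 in male 2, 9.41 in female 1 and 6.68 in female 2. Mybpc2, the fast myosin-binding protein C gene, was at 9.72, 9.02, 8.62 and 6.20. Both males lay above both females, and female 2 stood apart from the other 3 arrays. Female 2 was below the mean of the other arrays by -3.02 for Actn3 and -2.92 for Mybpc2, the 6th and 7th lowest such values among 23521 probe sets. For the fast troponins the same measure was -0.21 to -0.42. A value in female 2 at least 1 log2 unit below the lowest other array, a limit chosen after the values were seen, was found for 2 of the 10 genes and for 0.366% of all probe sets tested. That share includes 7864 dim probe sets that lay below all array medians on every array, so it is not one at the level of the 10 genes.

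The difference between the sexes was -1.79 (SE 0.94, 95% interval -4.31 to 0.72) for Actn3 and -1.96 (SE 0.86, 95% interval -4.26 to 0.34) for Mybpc2. It rested largely on female 2, without which it was -0.43 and -0.75. These were the 2 of the 10 genes with an absolute difference over 1, a size seen in 1.71% of all probe sets, dim ones included. Without female 1 it was -3.16 and -3.17.

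The slow partners differed less. Actn2, the alpha-actinin gene of every fibre type, was at 8.58 in male 1, 9.36 in male 2, 9.56 in female 1 and 9.14 in female 2. Mybpc1, the slow myosin-binding protein C gene, was at 8.77, 9.08, 9.57 and 8.70. In both genes the arrays of the sexes overlapped and female 1 was highest, and Mybpc1 was the only slow gene of the 5 that was lowest in female 2. The differences, female minus male, were 0.38 (SE 0.33) for Actn2 and 0.21 (SE 0.34) for Mybpc1. Actn2 was at -0.01 without male 1, and Mybpc1 was at -0.23 without female 1.

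No gene of the 10 passed the test between the sexes. Limma with Benjamini-Hochberg adjustment called 0 of the 10 and 0 of 23521 probe sets (0%), with adjusted p values of 0.969 to 0.980 for the 10. At an unadjusted p under 0.05 in limma there were 2 of the 10, Tnnc1 (95% interval of the difference 0.09 to 1.57) and Tnnt1 (0.01 to 1.12), both higher in females, where 4.49% of all probe sets met that limit and 2.64% did so toward females. Among the alternatives with all 4 arrays, Tnnc1 met it in each except the replicate block. Tnnt1 met it only with median centring and with array weights. Mybpc2 met it with a trended and robust prior as well as with the block. With the replicate number as a block, Mybpc2 met it and neither Tnnc1 nor Tnnt1 did. The groups did not overlap in 8 of the 10 genes, against 33.3% of all probe sets. The 5 fast genes were lower in females and did not overlap (17.5% of all probe sets), and 3 of the 5 slow genes were higher and did not overlap (15.8%). The median difference was -0.27 for the fast and 0.57 for the slow genes, beside -0.01 for all probe sets tested. These 10 values share the same 4 arrays and are not independent of each other.

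**Figure D2:**
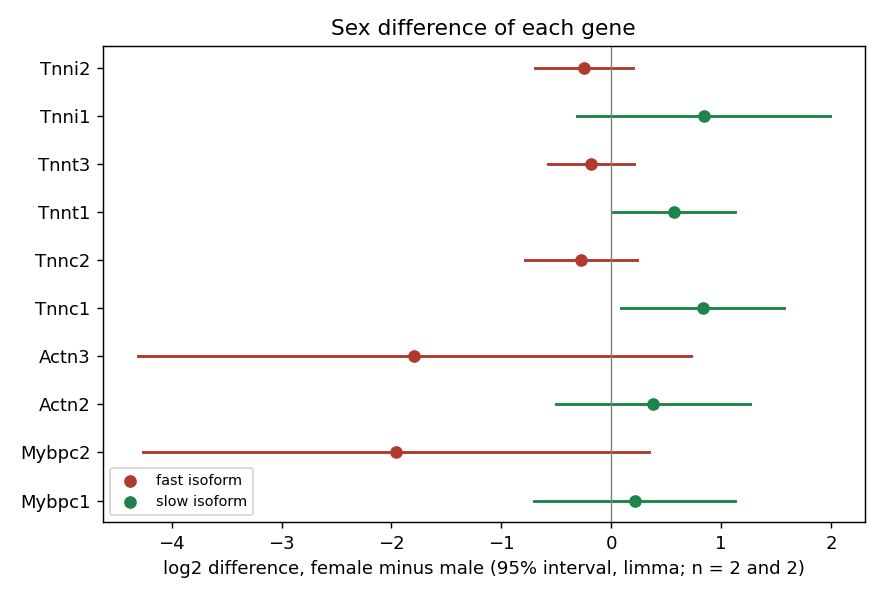
The log2 difference, female minus male, of each gene is plotted with its 95% interval from limma (2 arrays per sex), fast genes in red and slow genes in green. All 5 fast genes lie below 0 and all 5 slow genes above it, and in this fit, without a replicate block, the intervals of Tnnt1 and Tnnc1 leave out 0.

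Fast and slow genes of a pair were then compared within each array. A difference within an array leaves out the muscle RNA that both share only where both probe sets respond alike, which was not tested. The size of such a difference mixes probe response with RNA level, so only its change from array to array is read. An unequal response would enter that change as well. For troponin I, fast minus slow was 4.53 in male 1, 3.33 in male 2, 2.75 in female 1 and 2.93 in female 2. For troponin T it was 1.74, 1.28, 0.74 and 0.78. For troponin C it was 1.01, 0.22, -0.44 and -0.53. In the 3 troponin pairs male 1 was highest, male 2 lay between, and the 2 female arrays were within 0.19 of each other.

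The partner pairs had male 1 highest as well but separated the females. For alpha-actinin the difference was 1.43 in male 1, 0.31 in male 2, -0.14 in female 1 and -2.47 in female 2. For myosin-binding protein C it was 0.95, -0.06, -0.95 and -2.50. Female 2 lay 2.32 and 1.55 below the nearest other array in these pairs, whereas its troponin values lay close to those of female 1.

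**Figure D3:**
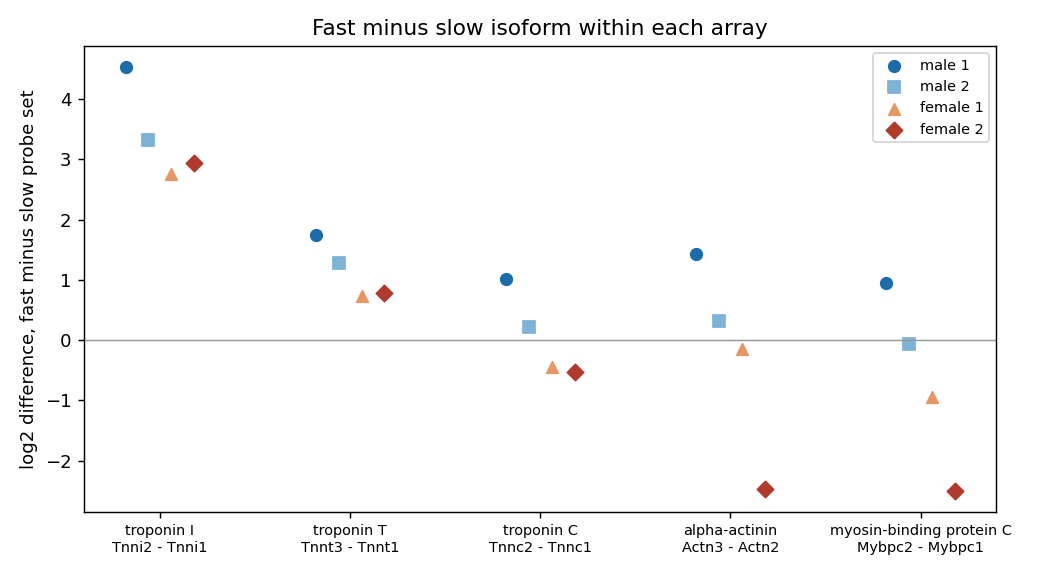
The log2 value of the fast gene minus that of the slow gene is plotted for each of the 5 pairs, with a point per array. Both males lie above both females in all 5 pairs, the females lie together in the troponin pairs, and female 2 lies apart in the alpha-actinin and myosin-binding protein C pairs.

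Both males were above both females in 5 of 5 pairs. Female minus male, the mean difference was -1.09 for troponin I (males 3.93 ± 0.85, females 2.84 ± 0.13, SD, n = 2 each). It was -0.75 for troponin T (1.51 ± 0.33 and 0.76 ± 0.03) and -1.10 for troponin C (0.62 ± 0.56 and -0.49 ± 0.06). It was -2.17 for alpha-actinin (0.87 ± 0.79 and -1.30 ± 1.64) and -2.17 for myosin-binding protein C (0.44 ± 0.71 and -1.72 ± 1.09). In the exact two-sided permutation test, 2 of the 6 possible splits of the arrays were as extreme as the observed one for each pair. This is the smallest share that 2 arrays against 2 allow, before or after adjustment over the 5 pairs, so the design cannot pass the threshold of 0.05 by this test. The mean over the 5 pairs was 1.93 in male 1, 1.02 in male 2, 0.39 in female 1 and -0.35 in female 2. Its sex difference was -1.46 with all pairs and -0.98 with the 3 troponin pairs alone. Without female 2 the alpha-actinin pair was at -1.01 and without male 1 the troponin I pair was at -0.49.

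Levels were also set against 18 measured genes of the sarcomere, its assembly and the muscle membrane that all fibres use, such as Acta1 and Neb. The median of this list was 8.45 in male 1, 8.27 in male 2, 8.69 in female 1 and 7.86 in female 2. Female 2 was the lowest array for 17 of the 18 genes, by a median of -0.62 from the other arrays, where it was lowest for 25.9% of all probe sets tested. Relative to this median, the fast troponins were above the other arrays in female 2 by 0.19 to 0.40 and the slow troponins by 0.87 to 0.98. The slow partners were above them there by 0.59 for Actn2 and by only 0.17 for Mybpc1. In female 1 the fast troponins were lowest, by -0.44 to -0.53, and on this scale the sexes overlapped for all 3. Actn3 and Mybpc2 were still below the other arrays in female 2, by -2.41 and -2.31. In male 1 the slow troponins remained below the other arrays, by -0.84 to -1.48, and the fast troponins were within 0.10 of them.

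Against Acta1, the skeletal actin gene, in place of the list, the fast troponins in female 2 were at -0.08 to -0.30 from the other arrays, so the direction of their small shift turned with the reference. Actn3 and Mybpc2 were at -2.90 and -2.80 by that reference. The part of the total muscle RNA in the sex differences was not tested.

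**Figure D4:**
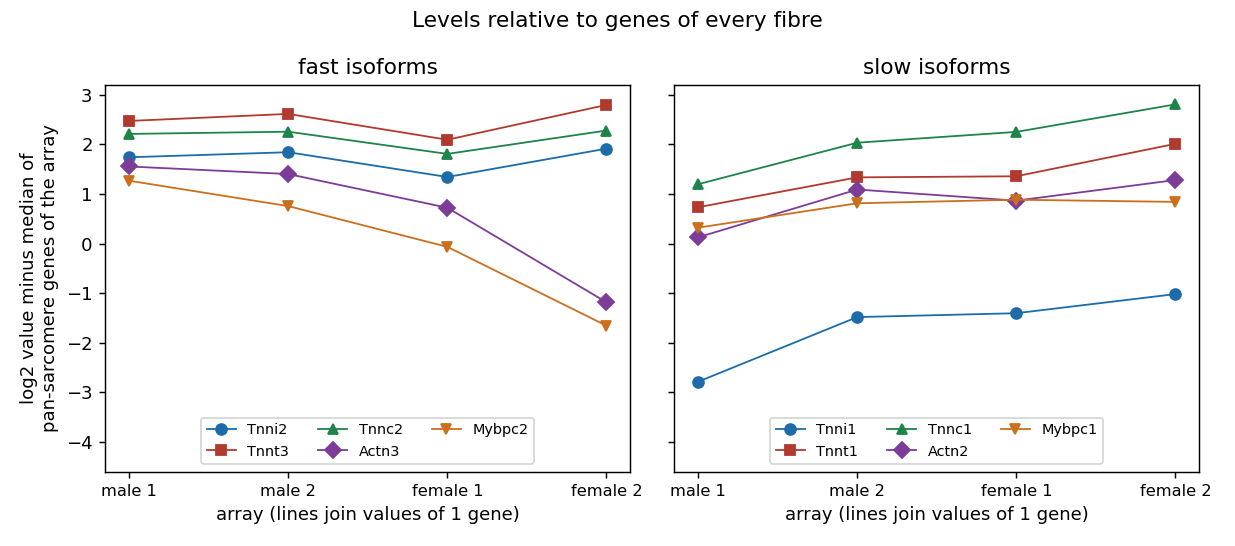
Each gene is plotted as its log2 value minus the median of the 18 pan-sarcomere genes of the same array, fast genes on the left and slow genes on the right; lines join the values of 1 gene. The fast troponins stay within 0.47 to 0.70 over the 4 arrays, Actn3 and Mybpc2 drop to -1.18 and -1.66 in female 2, and all slow genes are lowest in male 1.

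Other genes of fast fibres had their lowest value in female 2 as well. Of 15 measured genes of that list, which holds none of the 10, 13 were lower in females, 0 passed the test in limma, and the median difference was -0.38. Female 2 was the lowest array for 13 of the 15, with a median of -0.99 from the other arrays. The sexes did not overlap for 4 of the 15, against 33.3% of all probe sets. Of these 4, Myh4 and Pvalb were lower in females, and the fast myosin heavy chain genes Myh1 and Myh2 were higher, at 0.23 (SE 0.16) and 0.41 (SE 0.21). The widest differences were those of Myh4, the myosin heavy chain of the fastest fibres, at -1.76 (SE 0.97), Myoz1, a Z-disc gene, at -1.24 (SE 0.69) and Pvalb, the calcium buffer parvalbumin, at -0.79 (SE 0.51). Pfkm, the muscle phosphofructokinase gene, had a spread of 1.57, from 8.11 in male 1 to 6.54 in female 2, just above that of Pvalb (1.52). Mylpf, the fast regulatory light chain gene, spanned less, from 10.54 in female 1 to 10.16 in female 2. Myh1 was at 8.93 in female 2 against 8.78 to 9.17 elsewhere, and Myh2 was lowest in male 1, at 9.01 against 9.24 to 9.74.

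Other genes of slow fibres were lowest in male 1. All 13 measured genes of that list were higher in females, with a median difference of 0.71. Of these, 0 passed the test in limma, and 3 had an unadjusted limma p under 0.05 toward females, against 2.64% of all probe sets. Male 1 was the lowest array for 13 of 13, where it was lowest for 26.6% of all probe sets tested. Myh7b was highest in difference at 1.29 (SE 0.44), followed by Myh7, the slow myosin heavy chain gene, at 1.13 (SE 0.50) and Pln, the gene of the calcium pump regulator phospholamban, at 1.02 (SE 0.31). Casq2, the slow and cardiac calsequestrin gene, was at 4.98 in male 1, against 5.99 to 6.99 elsewhere. The sexes did not overlap for 8 of the 13, all higher in females, against 15.8% of all probe sets in that direction.

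**Figure D5:**
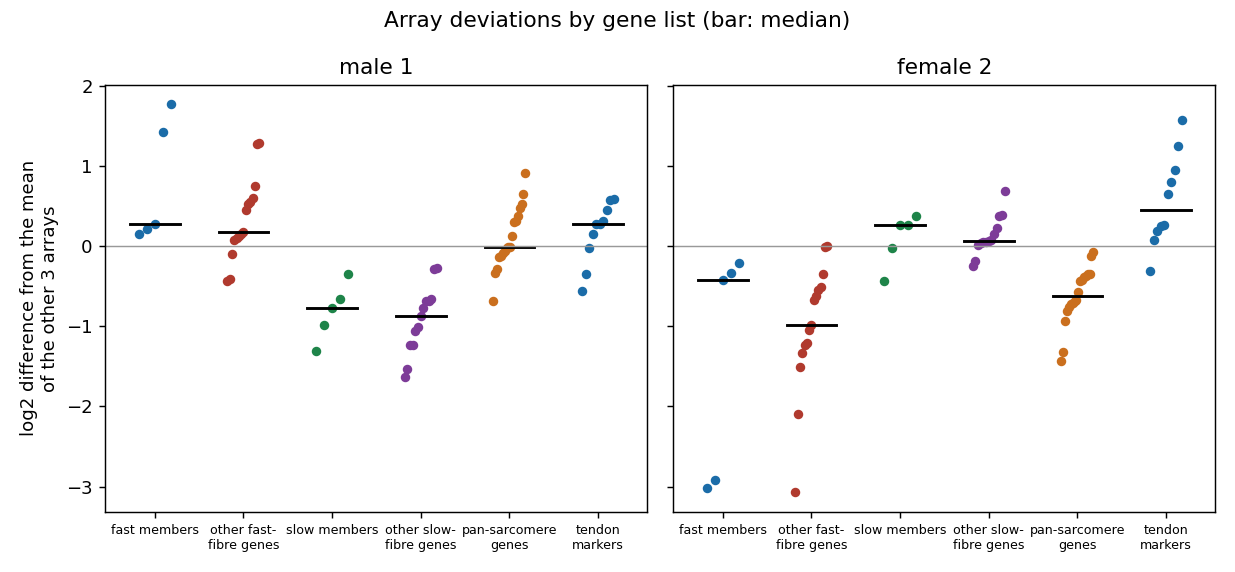
Each point is 1 gene, plotted as its log2 value in male 1 (left) or female 2 (right) minus the mean of the other 3 arrays, by gene list, and bars mark list medians. Slow members and other slow-fibre genes lie below 0 in male 1, and fast members and pan-sarcomere genes lie below 0 in female 2, as do 14 of 15 other fast-fibre genes, with medians of -0.99 for other fast-fibre genes and -0.62 for pan-sarcomere genes.

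Other thin-filament genes were not all alike. Of 14 measured, 7 were lower and 7 higher in females, with a median of 0.03, and 0 passed the test in limma. Lmod2, a leiomodin gene that controls thin-filament length, was at 0.68 (SE 0.30), the cardiac actin gene Actc1 at 0.63 (SE 0.45) and the slow tropomyosin gene Tpm3 at 0.58 (SE 0.24). Lmod3, a further leiomodin gene, ranged from 5.53 in female 2 to 6.99 in female 1. Tmod4, the tropomodulin gene that caps thin filaments in skeletal muscle, was at 6.05 in female 2 against 7.09 to 7.36 elsewhere. Tropomyosin gene Tpm2 was highest in female 2, at 9.97 against 9.62 to 9.78, and Acta1 spanned 11.09 to 11.34.

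Cardiac and non-muscle relatives were measured to see which members of the families the tissue held. Of 7 measured, 0 passed the test in limma, 4 were lower and 3 higher in females, and their median difference was -0.13. For 2 of the 7, Mybphl and Tnni3k, both lower in females, every value lay below all array medians. The median difference is that of Mybphl, so no difference is read from it. Tnnt2, the cardiac troponin T gene, was at 4.02 in male 1, 4.76 in male 2, 5.15 in female 1 and 4.68 in female 2. This is the order of Tnni1 at its extremes, and Tnnt2 and Tnni1 lie near each other on chromosome 1. Tnnt1 and Tnnc1, on chromosomes 7 and 14, had the same lowest and highest arrays. A link to position on the chromosome was not tested. Tnni3, the cardiac troponin I gene next to Tnnt1 on chromosome 7, was at 2.89, 2.49, 3.11 and 3.17. Mybpc3, the cardiac myosin-binding protein C gene, lay near the array medians at 2.18 to 2.47, so no difference is read from it. Actn1, a non-muscle alpha-actinin gene, was at 3.45, 4.30, 3.37 and 4.44, higher in male 2 and female 2 than in the other arrays. The list of 8 heart genes had a median of 2.48 to 2.94 per array, and 2 of the 8 had a mean below every array median.

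Markers of other cells also differed between the arrays that stood out. In female 2, 7 of 8 macrophage markers were at their highest, and their summed linear level was 338 there, 146 in female 1 and 139 to 144 in males. All 8 were higher in females, by a median of 0.45, and 0 passed the test in limma. The sexes did not overlap for 4 of these 8, all higher in females, against 15.8% of all probe sets in that direction. An unadjusted limma p under 0.05 was found for 1 of these 8, against 2.64% of all probe sets toward females. The share of all probe sets highest in female 2 was not computed, so counts of markers highest there have no background beside them. The summed level of 10 tendon markers was 3594 in female 2, 1744 in female 1 and 1947 to 2661 in males, with 6 of 10 highest in female 2. Chad had the highest level of the 10 there, at 10.70. Col1a2, Scx, Mkx and Tnmd were not highest in female 2, and Tnmd was lowest there, at 4.39. Of 8 adipocyte markers, 7 were lowest in male 1, by a median of -1.25 from the other arrays, where 26.6% of all probe sets were lowest. Their summed level, most of it from Fabp4, was 1189 in male 1, 1655 in male 2 and 1643 to 1844 in females. The median difference between the sexes was 0.90, with 7 of 8 higher in females and 0 past the test in limma. The sexes did not overlap for 6 of 8, all higher in females, against 15.8% of all probe sets in that direction. An unadjusted limma p under 0.05 was found for 3 of 8, all higher in females, against 2.64% of all probe sets. Smooth muscle markers summed to 94 in both males and 80 to 103 in females, and 1 of 6 had a mean below the array medians. Genes of developing or regenerating muscle summed to 103 to 127 in males and 105 to 172 in females, with 1 of 6 means below the array medians. The part of these cells in the sarcomere differences was not tested.

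The genes closest in pattern to 4 of the members were taken by the root mean square difference of array-centred log2 values over 4 arrays, among 10212 genes. For Actn3 the closest was Myh4 (0.075), at 10.61, 10.46, 10.20 and 7.35, followed by Map3k7cl (0.194), the muscle myosin kinase gene Mylk4 (0.195), Cd24a (0.395) and Phkg1 (0.410), which encodes the muscle catalytic subunit of phosphorylase kinase. Actn3 and Mybpc2 were 0.188 apart. For Mybpc2 the order was Map3k7cl (0.102), Myh4 (0.261), Mylk4 (0.347), Cd24a (0.354) and Tmem233 (0.366). For Tnni1, Bag3 (0.040), a co-chaperone gene of the Z-disc, came first, at 6.55, 7.71, 8.10 and 7.73, followed by Tab3, Bcas2, Mreg and Mrps31 (0.045 to 0.059), while the nearest member was Tnnc1 (0.176). For Mybpc1 the 5 closest, Ggcx, Rabl6, Tmem248, Zfand5 and Slc25a36, were within 0.039. With 4 arrays many genes can share an order, so these distances describe the arrays alone.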

How the data were processed

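Gene expression was measured on 4 Mouse Gene ST arrays, 2 per sex. The authors deposited 1 log2 value per probe set and array. Their tools were oligo and RMA, per the submitters' processing notes; versions, summary level and annotation build are not given in the sources used here. That the scale is log2 follows from the range of the values. They were used as deposited.

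Of 41345 rows, 23521 had exactly 1 gene symbol and were tested. Each was fitted on sex alone with limma 3.58.1 in R 4.3.3 (lmFit, eBayes), and Benjamini-Hochberg adjustment ran over all 23521, with a threshold of 0.05. Differences are female minus male. For list genes measured more than once, the probe set of highest mean was taken; each of the 10 members had 1. Pair differences were tested by exact permutation. The median SE of a difference was 0.187. In 10 simulated data sets per size of change, 2 females were set against 2 males, with 200 changed genes among 23521 probe sets. Of the changed genes, 0% were called at a log2 change of 1, 37.6% at 2 and 81.7% at 4. Noise was drawn independently for each probe set, so shifts that many genes of an array share were not simulated. Figures used matplotlib 3.10.9.

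The members, lists and tests were chosen with earlier results of these data known. Genes named beside the members are, per list, the 3 of widest difference and the 3 of widest spread, and the 5 genes closest in pattern to a member; other list genes serve as examples and were picked with their values in view. Alternatives were another prior, further normalization, filters on probe sets, a replicate block, array weights, a looser threshold, another reference gene, subsets of pairs and leaving out each array.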

Additional observations from a re-analysis of the deposited data

How the results depend on the processing

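Limma called 0 probe sets in the fit reported and under each of 12 alternatives: a trended and robust prior, a second quantile normalization, median centring, probe sets above the median level, all rows, the replicate block, array weights, an adjusted p under 0.1 and leaving out each array; 1056 probe sets had an unadjusted p under 0.05. The difference itself can move in 6 of the 11 alternatives for a gene (a second quantile normalization, median centring and leaving out each array); the other 5 give the same difference by construction and change its error alone. Under those 6, 8 of the 10 genes kept their sign. The others were Actn2, which ranged from -0.0095 (without male 1) to 0.77 (without male 2), and Mybpc1, which ranged from -0.23 (without female 1) to 0.65 (without female 2); the cause was not tested. Leaving out single arrays moved Actn3 between -3.16 and -0.43, Mybpc2 between -3.17 and -0.75, Tnni1 between 0.28 and 1.40, Tnnc1 between 0.50 and 1.16, Tnnt1 between 0.36 and 0.78, Tnnc2 between -0.45 and -0.09, Tnni2 between -0.38 and -0.12 and Tnnt3 between -0.25 and -0.12.

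The fast minus slow differences kept their sign after a second quantile normalization and without each array. Without single arrays, they ranged from -1.69 to -0.49 for troponin I, -0.98 to -0.52 for troponin T, -1.50 to -0.71 for troponin C, -3.34 to -1.01 for alpha-actinin, -2.94 to -1.40 for myosin-binding protein C, and -1.91 to -0.999 for their mean. With the replicate number as a block the mean is -1.46 by construction, since each number occurs once per sex. The block called 0 probe sets in limma, and at an unadjusted p under 0.05 it held Mybpc2 in place of Tnnc1 and Tnnt1. At that limit, Tnnt1 was also lost with the trended prior, after quantile normalization, with all rows and with dim probe sets left out, and both were lost without male 1, female 1 or female 2. The labels do not say that a number marks a shared litter or day, and same-numbered arrays had a correlation of -0.06 in their deviations from the group means. Averaging the probe sets of a gene changes nothing by construction, since each member had 1. All 10 genes lay above the array medians on every array.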
